A study of Mus musculus with 8 samples.

Results

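The fucose genes considered here are 10 genes that make, activate, transport, attach or remove L-fucose, and they were found by their gene symbol in the deposited signal table. Of these 10, 9 had at least 1 row, with 17 probes in all, among the 18120 gene symbols of the table, and *Fpgt* had none. *1810014F10Rik*, which encodes fucose mutarotase, was selected on its signal, which differed between the genotypes on these same arrays, so its values are given as a description with no test. The other genes were taken for their place in the pathway.

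RNA came from isolated glomeruli of 3-week-old male FVB/N mice, 4 wild type (*Cd151*+/+) and 4 homozygous for a deletion of *Cd151* (*Cd151*-/-), with 1 mouse per Illumina MouseRef-8 v1.1 array. *Cd151* encodes a tetraspanin that binds laminin-binding integrins, and mice of this strain that lack it develop early proteinuria with a damaged glomerular basement membrane. The deletion was present in every cell type, only males were used, and the same deletion on the C57BL/6 background was not analysed here. An isolate of glomeruli holds podocytes, endothelium and mesangium together, so fewer cells of a type and less RNA per cell cannot be told apart.

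Cells obtain GDP-fucose, the donor of all fucosylation, along 2 routes. The de novo route turns GDP-mannose into GDP-fucose through *Gmds* and *Tsta3*, while the salvage route takes free L-fucose through its mutarotase, the fucokinase *Fuk* and the pyrophosphorylase *Fpgt*. *Slc35c1* then carries GDP-fucose into the Golgi, where *Fut8* adds the core fucose of N-glycans, whereas *Pofut1* and *Pofut2* work in the endoplasmic reticulum and attach O-fucose to EGF-like and thrombospondin repeats. *Fuca1* removes fucose in the lysosome. Integrins, the partners of CD151, are N-glycosylated proteins, and Notch receptors are substrates of *Pofut1*.

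The 3 probes of *Cd151* were detected in each *Cd151*+/+ mouse (4 of 4) and in no *Cd151*-/- mouse (0 of 4), which fits the labels. Levels are normalised log2 signals, and a probe was called detected on an array at a detection p-value of 0.05 or lower. The arrays fell into 2 sets of 4 by background, each with 2 mice of each genotype. *Cd151*+/+ mice 1 and 2 and *Cd151*-/- mice 3 and 4 had a background of 58.5 to 69.2, while *Cd151*+/+ mice 3 and 4 and *Cd151*-/- mice 1 and 2 had one of 122 to 132. Between 11291 and 12359 probes were detected per array. The podocyte markers *Podxl* and *Wt1* were detected in all 8 mice, and *Nphs1* and *Synpo* had no row. Proximal tubule markers were present as well. All 6 that were measured had a higher mean in *Cd151*-/- mice (median difference 0.70), and their summed signal was 18712 to 57178 in the *Cd151*+/+ group and 37887 to 70649 in the other. By marker (*Slc34a1*, *Lrp2*, *Slc22a6*, *Miox*, *Fbp1* and *Kap*), the differences were 0.93, 0.71, 1.81, 1.41, 1.30 and 1.91 within the arrays of lower background. Within those of higher background they were 0.03, 0.11, 0.15, 0.10, -0.03 and 0.85. *Lrp2* was detected on 0 *Cd151*+/+ and 2 *Cd151*-/- arrays. The summed erythroid markers were lower in *Cd151*-/- mice without overlap (17551 to 37214 against 37372 to 49550), led by *Hba-a1* and *Alas2*, and the part of either cell type in the values that follow was not tested.

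*1810014F10Rik*, now named *Fuom*, was read by 2 probes that the table assigns to the same target, and the pair behaved differently. Fucose mutarotase interconverts the alpha and beta forms of L-fucose, and fucokinase uses the beta form. At the brighter probe, ILMN_1251065, the deposited signals of *Cd151*+/+ mice 1 to 4 were 388, 314, 879 and 1527, which is 5.36 to 12.1 times the background of each array. Those of *Cd151*-/- mice 1 to 4 were 207, 181, 69.1 and 103, or 0.999 to 1.57 times the background. After normalisation the log2 levels were 9.51, 9.24, 9.52 and 9.84 in *Cd151*+/+ mice. In *Cd151*-/- mice they were 5.80, 5.50, 4.69 and 6.53. Every *Cd151*+/+ mouse was thus above every *Cd151*-/- mouse, and on this normalised scale the *Cd151*-/- mice, at or near background, were the more scattered group. As multiples of background the *Cd151*+/+ mice had the wider range.

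The group means at this probe were 9.53 ± 0.25 (SD, n = 4) and 5.63 ± 0.76 (SD, n = 4), a difference of -3.90 on the log2 scale and a 14.9-fold lower signal of this probe in *Cd151*-/- glomeruli. *Cd151*-/- mouse 3 had a detection p-value of 0.504 and so was at background, while the other 3 were detected. The difference was -3.76 within the arrays of lower background and -4.03 within those of higher background. It was -2.56 on signals with no background correction, so the fold depends on how the dim *Cd151*-/- signals are corrected.

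The second probe, ILMN_1251930, did not show this loss. Its log2 levels in *Cd151*+/+ mice 1 to 4 were 6.39, 6.04, 7.47 and 7.70. In *Cd151*-/- mice they were 7.76, 7.59, 6.32 and 6.71, and all 8 arrays detected it. The groups overlapped. The 4 arrays of lower background lay at 6.04 to 6.71 and the 4 of higher background at 7.47 to 7.76, and the cause of this split was not tested. The difference between the genotypes was 0.20, with 0.30 and 0.09 within the sets. Probe sequences were not used here, and which part of the transcript each probe reads is not given in the table. The paper lists this gene among those lower in *Cd151*-/- glomeruli on these same arrays. It also reports that real-time PCR in a second cohort of mice did not bear out a changed expression of this gene.

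**Figure D1:**
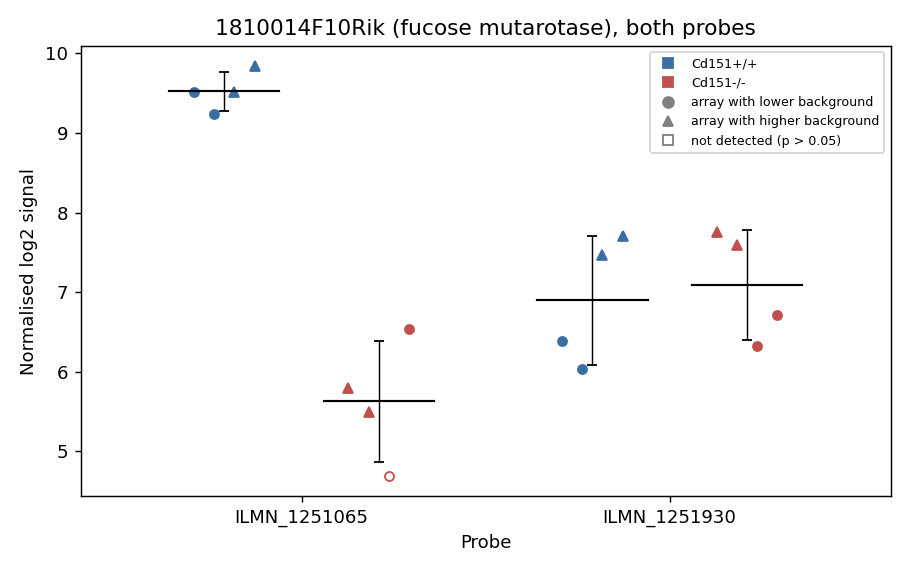
Normalised log2 signal of the 2 probes of *1810014F10Rik* in each of the 8 mice, coloured by genotype and shaped by array background, with open symbols where a probe was not detected; horizontal lines are group means and bars 1 SD. At ILMN_1251065 the *Cd151*+/+ mice lie at 9.24 to 9.84 and the *Cd151*-/- mice at 4.69 to 6.53, whereas at ILMN_1251930 the genotypes overlap and the arrays of higher background lie above the others.

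The profile most like that of the brighter probe over the 8 arrays, by the root mean square distance between log2 levels centred on each probe, was that of *6030408B16Rik*. Its probes ILMN_3049778 and ILMN_3125764 had distances of 1.15 and 1.29 log2 units, and *Tspan32*, which encodes another tetraspanin, had 1.27. ILMN_3049778, which 4 *Cd151*+/+ arrays and 1 *Cd151*-/- array detected, differed between the genotypes by -2.18, mostly against signals at background. ILMN_3125764, detected on all 8, differed by -1.89, and *Tspan32*, which no *Cd151*-/- array detected, was at least 1.74-fold lower there, taken against the lowest detected signal of each array. These were picked for their likeness to a gene chosen for its difference and are a description.

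*1810014F10Rik* lies on chromosome 7, as does *Cd151*, with 70 protein-coding genes between them in the RefSeq gene order of GRCm38.p6. Of the 5 genes on each side of it, 9 had a probe and 3 were detected. *Echs1*, the mitochondrial enoyl-CoA hydratase gene directly next to it, had log2 levels of 11.13, 10.61, 11.14 and 12.03 in *Cd151*+/+ mice and of 10.53, 10.02, 9.10 and 10.22 in *Cd151*-/- mice. Its groups did not overlap (exact permutation test, two-sided p = 0.0286, the smallest that 4 mice against 4 can give), as was the case for 2.31% of the 14967 tested probes, and 1.46% did so with the *Cd151*-/- mice lower. The difference was -1.26 and did not pass Benjamini-Hochberg adjustment over these probes in limma (adjusted p = 0.918). *Paox*, a polyamine oxidase gene, and *Tubgcp2*, which encodes a part of the gamma-tubulin complex, had differences of 0.15 and 0.27 and also did not pass (adjusted p = 0.929 and 0.918).

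Of the 9 other fucose genes, 7 had a detected probe, each of them on all 8 arrays, and *Fuca1* had none. None of the 7 passed Benjamini-Hochberg adjustment over all tested probes in limma (adjusted p 0.918 to 1.00), where 0.0334% of all probes did. At an unadjusted p of 0.05 the count was again 0 of 7, against 4.30% of all probes, and groups without overlap were seen for 0 of 7, where 0.855% of all probes were higher and 1.46% lower without overlap. With the array set as a block the counts at these 7 probes were again 0 after adjustment, against 0.0535% of all probes, and 0 before it, against 11.3%. With 1 probe per gene, the one with the highest mean, 3 genes were higher and 4 lower in *Cd151*-/- glomeruli. The differences ran from -0.14 to 0.38 with a median of -8.66e-05, beside a median of -0.0073 over all tested probes. Levels of different probes are not comparable with each other, so each gene is described against itself.

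**Figure D2:**
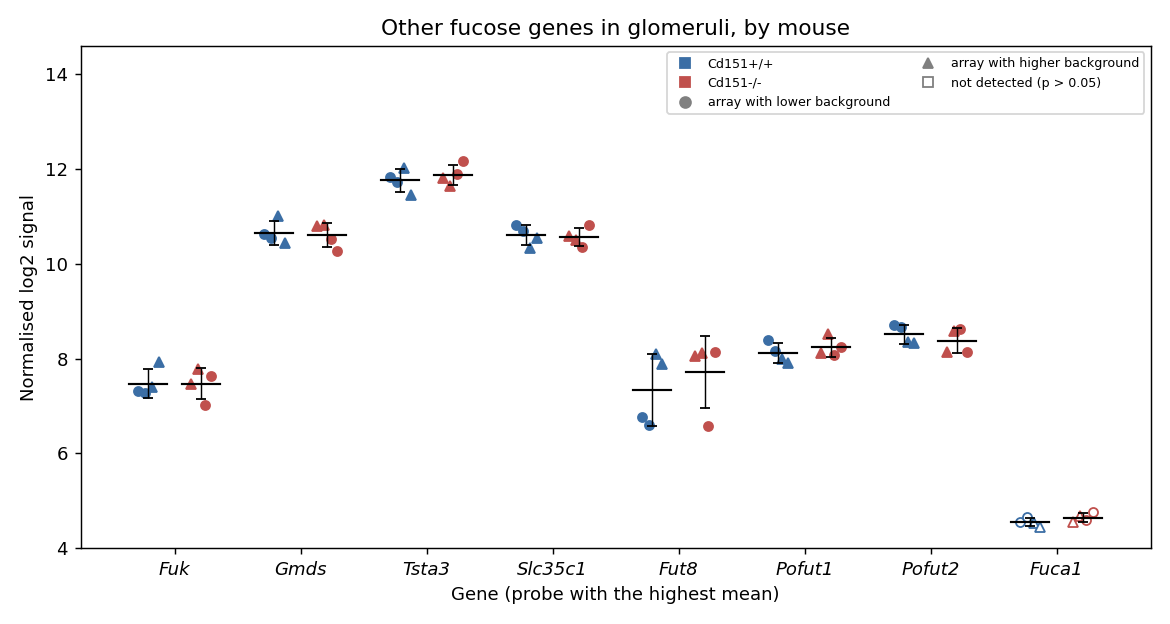
Normalised log2 signal of the other 8 fucose genes with a row, at the probe with the highest mean, for each of the 8 mice, coloured by genotype and shaped by array background; open symbols were not detected, lines are means and bars 1 SD. The genotypes overlap for each gene, the spread is widest for *Fut8*, and *Fuca1* lies at background in all 8 mice.

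In the de novo route, *Gmds*, the GDP-mannose dehydratase, had log2 levels of 10.64, 10.55, 11.02 and 10.43 in *Cd151*+/+ mice and of 10.81, 10.81, 10.52 and 10.28 in *Cd151*-/- mice. The groups overlapped throughout, with a difference of -0.05 (95% interval -0.55 to 0.44, adjusted p = 0.969 from limma). *Tsta3*, now named *Gfus*, encodes the enzyme that completes GDP-fucose. It stood at 11.84, 11.72, 12.03 and 11.46 in *Cd151*+/+ mice and at 11.80, 11.64, 11.90 and 12.16 in *Cd151*-/- mice. The difference was 0.11 (95% interval -0.36 to 0.59, adjusted p = 0.937).

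In the salvage route, *Fuk*, the fucokinase gene now named *Fcsk*, had levels of 7.32, 7.27, 7.39 and 7.92 in *Cd151*+/+ mice and of 7.47, 7.79, 7.02 and 7.63 in *Cd151*-/- mice at probe ILMN_2641632. Both means were 7.48, and the 95% interval of the difference was -0.54 to 0.54 (adjusted p = 1.00 from limma). Its second probe, ILMN_3120565, assigned to another target, differed by -0.06 (95% interval -0.58 to 0.46, adjusted p = 0.968). For the step after the mutarotase, no difference was thus detectable at either probe, and *Fpgt*, the last step of the route, was not measured.

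*Slc35c1*, the Golgi GDP-fucose transporter, stood at 10.83, 10.70, 10.34 and 10.55 in *Cd151*+/+ mice and at 10.60, 10.51, 10.35 and 10.82 in *Cd151*-/- mice. The difference was -0.04 (95% interval -0.49 to 0.42, adjusted p = 0.984), and a dimmer probe, ILMN_3134301, gave -0.13 (adjusted p = 0.934). The remaining probe, ILMN_3057208, was not detected on any array.

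*Fut8*, the fucosyltransferase of the N-glycan core, varied most from mouse to mouse among the 7 other genes at their brightest probes. At ILMN_2815024 the *Cd151*+/+ mice stood at 6.78, 6.61, 8.10 and 7.90. The *Cd151*-/- mice stood at 8.06, 8.11, 6.58 and 8.14. *Cd151*+/+ mice 1 and 2 and *Cd151*-/- mouse 3, all on arrays of lower background, were more than 1 log2 unit below the other 5, which lay within 7.90 to 8.14. The difference between the genotypes was 0.38 (95% interval -0.58 to 1.35, adjusted p = 0.918 from limma), with 0.67 within the arrays of lower and 0.09 within those of higher background. With 1 mouse left out in turn it was 0.13, without *Cd151*+/+ mouse 2, to 0.76, without *Cd151*-/- mouse 3.

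A dimmer probe of *Fut8*, ILMN_2749471, was detected on 2 *Cd151*+/+ and 3 *Cd151*-/- arrays. Its levels were 4.61, 4.66, 5.41 and 5.73 in *Cd151*+/+ and 6.41, 5.99, 4.61 and 6.07 in *Cd151*-/- mice. The same 3 mice were lowest. The difference was 0.67 (95% interval -0.22 to 1.55, adjusted p = 0.918), and with the array set as a block it had an unadjusted p of 0.0434 and an adjusted p of 0.436, where the same 11.3% applies. With 1 mouse left out it was 0.43, without *Cd151*-/- mouse 1, to 1.09, without *Cd151*-/- mouse 3 (adjusted p = 0.512). ILMN_1234126 was at background on all 8 arrays. Those 3 mice also had the lowest summed proximal tubule signal (14.19, 14.61 and 15.21 on the log2 scale, against 15.30 to 16.11 in the other 5) and the lowest levels of the second *1810014F10Rik* probe. This was noted after the values were seen, and the part of proximal tubule RNA or of the array set in these levels was not tested.

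*Pofut1*, which places O-fucose on the EGF-like repeats of Notch and other proteins, stood at 8.39, 8.16, 8.00 and 7.90 in *Cd151*+/+ and at 8.12, 8.53, 8.08 and 8.24 in *Cd151*-/- mice at ILMN_3132204. The difference was 0.13 (95% interval -0.34 to 0.59, adjusted p = 0.927). Its probe ILMN_2599360, assigned to another target in the table, went the other way by -0.21 (95% interval -0.79 to 0.38, adjusted p = 0.920), and ILMN_3055425 was not detected. *Pofut2*, which does the same on thrombospondin repeats, stood at 8.70, 8.68, 8.35 and 8.33 in *Cd151*+/+ and at 8.15, 8.59, 8.63 and 8.15 in *Cd151*-/- mice. The difference was -0.14 (95% interval -0.62 to 0.35, adjusted p = 0.926).

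*Fuca1*, the lysosomal fucosidase, was read by 1 probe that was at background on all 8 arrays, with signals of 0.822 to 1.03 times the background and detection p-values of 0.375 to 0.954. No level or fold can be given for it.

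**Figure D3:**
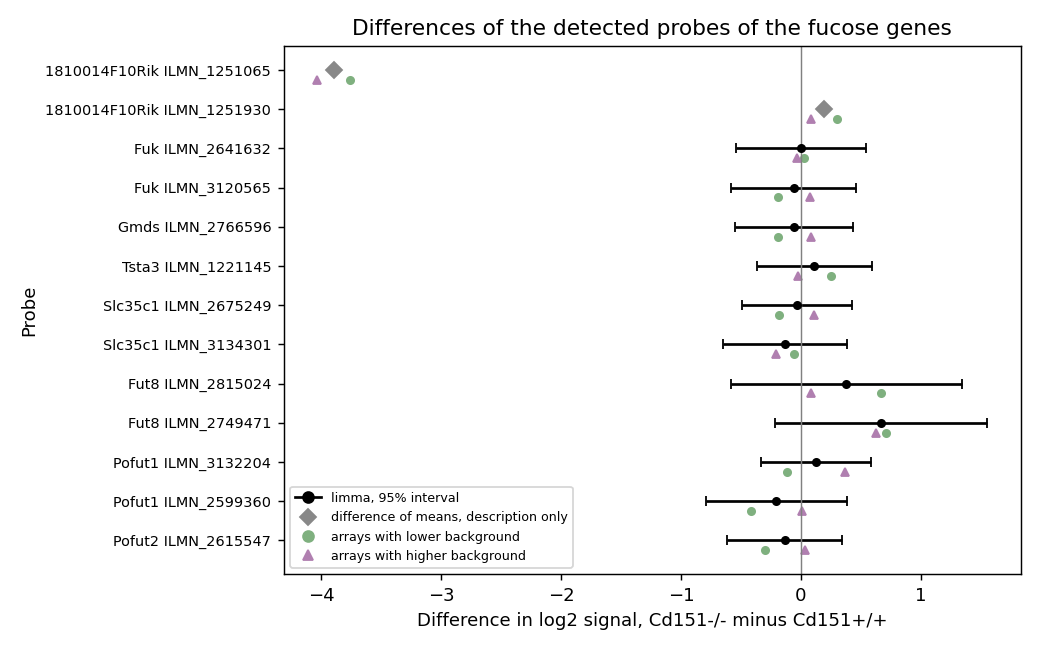
Difference in normalised log2 signal, *Cd151*-/- minus *Cd151*+/+, of the 13 detected probes of the fucose genes. Black points carry 95% intervals from limma, grey diamonds mark the probes of *1810014F10Rik* as a description, and coloured points give the difference within each array set; ILMN_1251065 lies at -3.90 and the intervals of all other genes include 0.

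The remaining fucosylation machinery and the steps around it were followed in 40 further genes, of which 38 had a probe and 26 were detected. None of the 26 passed Benjamini-Hochberg adjustment in limma (adjusted p 0.918 or higher), 2 passed an unadjusted p of 0.05 (1 higher and 1 lower) against 4.30% of all tested probes, and groups without overlap were seen for 0 of 26 against 2.31%. The differences went each way equally often, 13 higher and 13 lower, with a median of -0.0047.

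Of the 8 other fucosyltransferases, 6 were not detected on any array, among them *Fut1*, *Fut2*, *Fut7* and *Fut9*, which build terminal fucose epitopes. *Fut10* was detected in all 8 mice and differed by -0.28 (95% interval -0.82 to 0.26, adjusted p = 0.918 from limma). *Fut4* was detected in 1 and 2 mice. Of the Fringe enzymes, which extend O-fucose on Notch, *Lfng* was not detected and *Rfng* differed by -0.35 (adjusted p = 0.918).

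*Mfng* was read at ILMN_2631081, the brighter of its 2 probes, and the other was not examined. This probe was detected in every *Cd151*+/+ mouse, at 6.28, 5.69, 6.21 and 6.26, and in 1 *Cd151*-/- mouse. The *Cd151*-/- mice stood at 5.10, 6.14, 4.82 and 4.87, so 3 of them were below every *Cd151*+/+ mouse and *Cd151*-/- mouse 2 was within their range. The difference was -0.88 (95% interval -1.56 to -0.20), with an unadjusted p of 0.0160 and an adjusted p of 0.918 from limma. At an unadjusted p of 0.05, 2.61% of all tested probes were lower.

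In the supply of GDP-mannose, the substrate of *Gmds*, the phosphomannomutases *Pmm1* and *Pmm2* differed by -0.06 and -0.14, and *Gmppa*, which encodes a subunit of GDP-mannose pyrophosphorylase, by -0.43 (adjusted p = 0.918 for *Gmppa*). *Gmppb*, its catalytic partner, named after its values were seen, had an unadjusted p of 0.0228 in the higher direction, where 1.69% of all probes passed. It was detected in 0 and 1 mice, so no fold is given.

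Of the enzymes that trim and branch N-glycans, *Mgat1*, *Mgat4b* and *Man2a2* differed by -0.31, -0.30 and -0.32 (adjusted p = 0.918 for each). The list as a whole went both ways, with 3 of its 5 detected genes lower and 2 higher, *Man2a1* by 0.25 and *Mgat5* by 0.011, both named after their values were seen. Among the transporters of nucleotide sugars, *Slc35a1* for CMP-sialic acid differed by 0.36, *Slc35b4* by 0.27 and *Slc35c2*, a protein related to *Slc35c1*, by -0.23, all without passing.

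All 7 detected lysosomal glycosidases other than *Fuca1* had a higher mean in *Cd151*-/- glomeruli, with a median difference of 0.34, but 0 of 7 passed an unadjusted p of 0.05 (4.30% of all tested probes did) and the groups overlapped for each (2.31% of all did not). *Glb1*, the beta-galactosidase gene, had the largest difference, 0.80 (95% interval -0.13 to 1.73, adjusted p = 0.918). Its levels were 8.65, 8.56, 9.97 and 9.91 in *Cd151*+/+ and 10.49, 10.11, 9.10 and 10.58 in *Cd151*-/- mice, again lowest in *Cd151*+/+ mice 1 and 2 and *Cd151*-/- mouse 3. The difference was 1.23 within the arrays of lower and 0.36 within those of higher background. *Man2b1*, a lysosomal mannosidase gene, and *Neu1*, a sialidase gene, differed by 0.34 each. As given above, the proximal tubule markers also had higher means in this group, and their part in these differences was not tested.

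**Figure D4:**
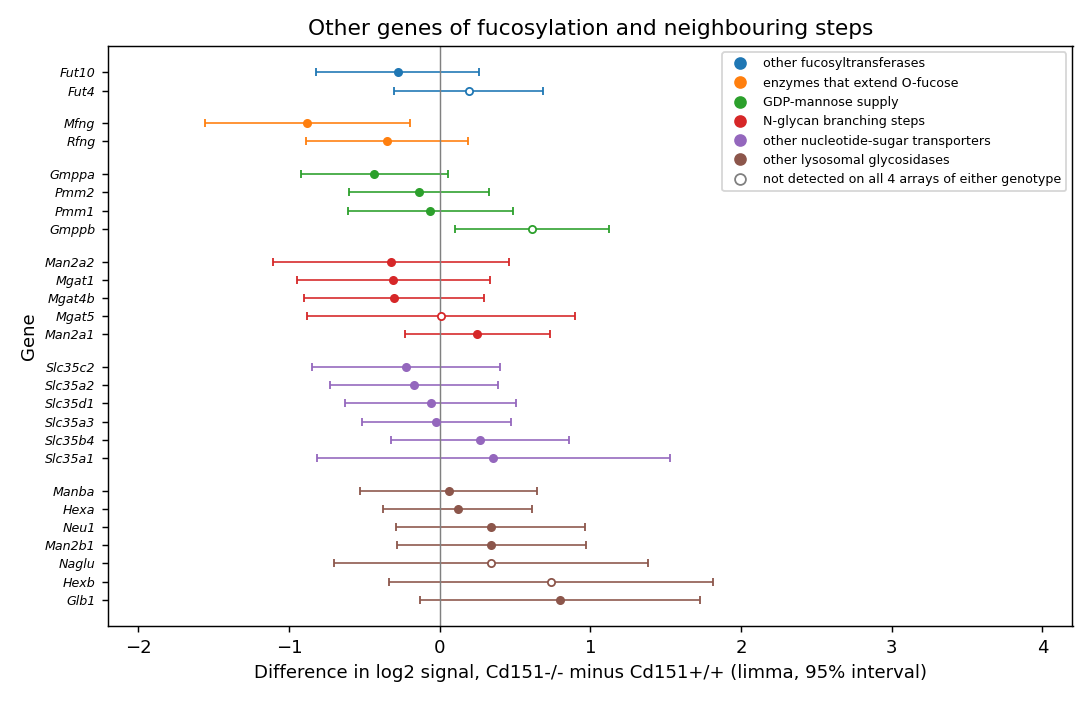
Difference in normalised log2 signal, *Cd151*-/- minus *Cd151*+/+, with 95% intervals from limma, for the 26 detected genes of 6 lists around fucosylation, coloured by list; open points were not detected on all 4 arrays of either genotype. The intervals of *Mfng* and *Gmppb* leave out 0 before adjustment, and all 7 lysosomal genes lie above 0 with intervals that include it.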

How the data were processed

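RNA was amplified, labelled with biotin and hybridised, and the authors deposited, from GenomeStudio, the signal intensity of 25697 probes, neither background-subtracted nor normalised, and a detection p-value, the share of negative-control probes at least as bright. The package limma 3.58.1 in R 4.3.3 inferred the background from these p-values, applied neqc (offset 16, quantile normalisation) and fitted the genotypes with lmFit and eBayes on log2 values. Tests covered the 14967 probes that 1 array or more detected (detection p-value up to 0.05), and p-values were adjusted over all of them by Benjamini-Hochberg. An offset pulls dim signals together, so differences near background are understated. The array background is the median signal of probes with a detection p-value near the middle of its range. The number of arrays limits the precision.

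The members, the further lists, the tests and the alternatives were chosen with earlier results of these data known. Every member and probe is named. In each further list the genes past adjustment, or otherwise the 3 with the largest difference among those detected on all 4 arrays of a genotype, are named, besides the 5 genes on each side of *1810014F10Rik* and the 3 probes most like it. Genes of the further lists were read at the probe with the highest mean only, so other probes of *Mfng*, *Gmppa*, *Fut10* and others were not examined. Symbols were matched to the RefSeq table of GRCm38.p6 (17241 of 18120), and *1810014F10Rik* through its transcript accession in the study's primer list. The procedure was tested on simulated data. The SAM analysis, the real-time PCR and the C57BL/6 mice were not analysed here.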

Additional observations from a re-analysis of the deposited data

Results flagged for a closer look

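*Fut8* at ILMN_2815024 had 1 *Cd151*-/- mouse far from the others. Mouse 3 stood at 6.58 and the next at 8.06, and this gap was 0.944 of the range of the group, above Dixon's critical value for 4 samples. It was the 1 such case among 26 groups of 4 (13 probes in each genotype), where chance gives about 1 in 20. The difference between the genotypes was 0.76 without this mouse (adjusted p = 0.548 from limma) and 0.38 with it.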

How the results depend on the processing

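The adjusted count stayed at 0 for the other fucose genes and for the 40 further genes under each alternative run. At ILMN_1251065 the difference of *1810014F10Rik* was -2.56 with no background correction and -3.17 with an offset of 50, both of which by construction raise dim signals, and -4.22 to -3.60 with each mouse left out. At the brightest probe of each gene, array weights gave 1 other fucose gene at an unadjusted p of 0.05, *Fut8* (0.93), and 13 of the further genes in place of 2. Over all probes they gave 4816 of 14967. Among the dimmer probes they also gave ILMN_2749471 of *Fut8* (1.23) and ILMN_2599360 of *Pofut1* (-0.53). The count of further genes was 1 with scaling to the 75th percentile (389 of all 14967 probes). It was also 1 with detection on all 4 arrays of a group (540 of 10451). With the array set as a block it was 4 (1690 of 14967), and with a mouse left out it was 1 to 4. It was 4 without *Cd151*+/+ mouse 4 (980 of 14776) or *Cd151*-/- mouse 3 (1391 of 14771). It was 1 without *Cd151*-/- mouse 1 (340 of 14766) or 2 (793 of 14705). Over all probes the unadjusted count of 643 ranged from 339, without *Cd151*+/+ mouse 1, to 4816 with array weights; the cause was not tested.

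Signs of differences near 0 turned. *Fuk* at ILMN_2641632 was 0.0015 with no background correction, 0.0018 scaled to the 75th percentile, 0.00083 with an offset of 50, 0.14 with array weights and -0.10 to 0.15 with a mouse left out. With array weights *Fuk* at ILMN_3120565 was 0.0557 and *Gmds* 0.11. With a mouse left out *Fuk* at ILMN_3120565 was -0.21 to 0.0907, *Gmds* -0.13 to 0.0651, *Slc35c1* at ILMN_2675249 -0.12 to 0.0394 and the second *1810014F10Rik* probe -0.0926 to 0.46. That probe was 0.94 with array weights. The median of the other fucose genes stayed within -0.12 to 0.10.

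The deviations of same-numbered mice from their group means correlated at -0.58 to -0.0086 across probes. Same-numbered mice always lay in opposite background sets, so these values cannot show whether the mouse numbers pair the samples. With the number as a replicate block the differences stay as they are by construction, the counts of other fucose genes past either threshold were 0, and 420 of all probes in place of 643 had an unadjusted p of 0.05 or lower.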
